A study of Mus musculus with 20 samples.

Results

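Homologous recombination repairs broken DNA from an intact copy, and the Fanconi anemia pathway removes crosslinks that tie the DNA strands together. In both routes a break is sensed and its ends are resected, checkpoint kinases hold the cell cycle, and the BRCA proteins ready the single-stranded DNA for pairing with the copy. Both act mainly in cells that copy their genome. Microglia, the resident immune cells of the spinal cord, divide little in the healthy cord and proliferate after a lesion. The genes described here are those of the deposited table whose symbols start with Fanca to Fancm or with Rad50 to Rad59, those named Xrcc1 to Xrcc6, Brca1 or Brca2, and 14 further repair genes listed by name. They came to 43 of the 16810 genes of the table, and 42 are described, 28 found by spelling and 14 from the list. *Rad54l2* and *Rad51ap2* entered by their spelling alone.

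Microglia were sorted by flow cytometry as cells with high eGFP from adult male CX3CR1+/eGFP mice (C57BL/6 background), in which a copy of the fractalkine receptor gene is replaced by the green fluorescent reporter. All samples, the controls included, carried this allele. The reporter is also active in monocytes. Non-injured mice (NI, 3 samples) were compared with mice after a lateral hemisection (HS) or a full transection (FT) of the thoracic cord, with the sorted cells taken from the segment around the lesion. Samples were taken at 72 h, 1 week and 2 weeks, 3 per injury and time except for HS at 1 week, which had 2. RNA came from more mice than there are libraries, and how many mice each library holds is not given in the sources used here. If they shared animals or preparations, the p-values measure only the spread between libraries. The comparisons ask how transcription in microglia changes with the time after injury and with the severity of the lesion.

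Values are normalized counts in CPM, that is, reads per mega-read (M) of the library size after edgeR's adjustment. Depth ran from 3.87 to 34.1 M reads per sample on the listed genes, so 1 read was worth 0.0330 to 0.292 CPM. FT 1 week replicate 1 stood apart from its group, with a chi-square per degree of freedom of 112 and 111 against the group's other members, which gave 49.4 between them (11.6 to 64.9 in all other pairs of replicates). The 8 microglial markers summed to 14025 to 28740 CPM over the 20 samples. Of the 8, only *Tmem119*, a marker of resting microglia, was called at 72 h, lower after both injuries. The log2 fold changes of the 8 at 72 h ran from -1.22 to 0.94 after HS and from -1.13 to 0.99 after FT. *P2ry12* was called lower at 2 weeks after FT. Every listed marker of 9 other cell types that the table holds was above 0 in at least 1 sample of each group. A gene is called here at a Benjamini-Hochberg adjusted p below 0.05 in limma over 16810 genes together with a change of at least 2-fold on the log2(CPM + 0.5) scale. That scale understates the change of genes at a few CPM.

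At 72 h, 14 of the 42 genes rose after HS and 13 rose after FT, and none was called lower. Over all genes of the table, 9.08% were called higher and 4.31% lower after HS, and 8.14% higher and 4.09% lower after FT. The strand pairing genes *Rad51ap1* and *Rad54l*, *Brca1*, the resection nuclease *Exo1* and the checkpoint kinase *Chek1* rose by a log2 fold change of 2.03 to 3.15 after HS and 2.03 to 2.68 after FT. In all, 12 genes rose after both injuries, *Chek2* and *Rad51c* were called after HS alone, and *Rbbp8* after FT alone. The median log2 fold change of the 42 genes was 0.77 after HS and 0.60 after FT, beside -0.11 and -0.09 over all genes. In bulk RNA, more cells that express a gene and more of its RNA per cell cannot be told apart. The samples lay above every NI sample for 26 of the 42 genes in each comparison, against 24.0% and 22.2% of all genes. That share is not given for 1 week and 2 weeks. No lasting rise is therefore read where the later samples of a gene lay above NI without a call. By 1 week and 2 weeks only *Rad51b* and *Xrcc5* were called against NI, both after FT, and 25 of the 42 genes were called in no comparison with NI.

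**Figure D1:**
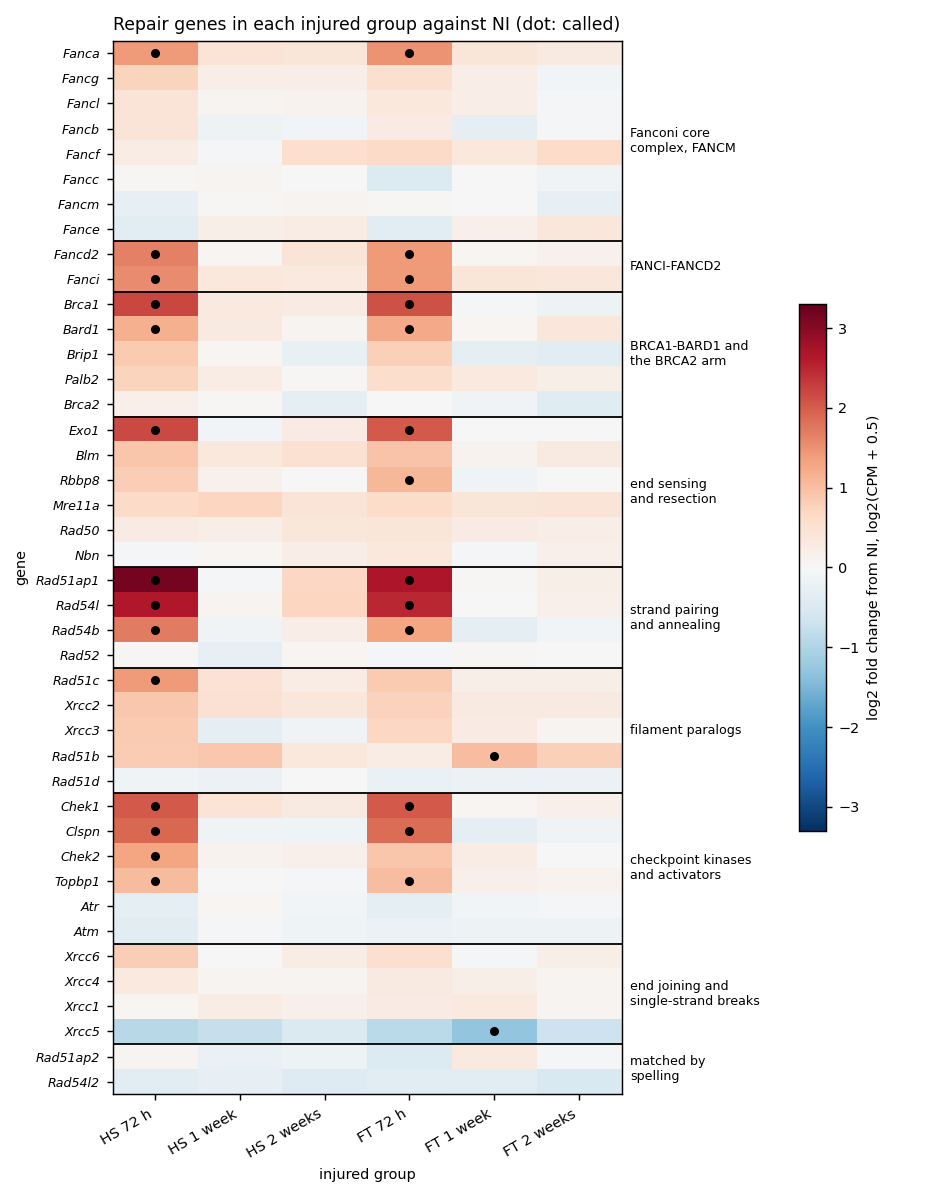
Log2 fold change from NI on the log2(CPM + 0.5) scale (colour, red higher and blue lower than NI) of the 42 repair genes (rows, grouped by role) in the 6 injured groups (columns), with a black dot where a gene was called. The dots stand in the 72 h columns, 14 after HS and 13 after FT, apart from *Rad51b* and *Xrcc5* in the column of FT at 1 week.

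The deposited scale left the columns with unequal totals, from 777426 to 830481 CPM in NI and from 878070 to 1202186 CPM in injured samples. When every column was brought to 1 total, the median of all genes at 72 h moved from -0.11 to -0.52 after HS and from -0.09 to -0.48 after FT. The median of the repair genes stayed above that of all genes, by 0.80 after HS (0.88 on the deposited scale) and by 0.63 after FT (0.68). On that scale 9 of the 42 genes were called higher after HS and 7 after FT, beside 3.68% and 3.69% of all genes. Only *Rad51ap1*, *Rad54l*, *Brca1*, *Exo1*, *Chek1* and *Clspn* were then called higher after both injuries. *Fancd2*, *Fanci* and *Rad54b* were called after HS alone and *Fanca* after FT alone. *Bard1* and *Topbp1*, called after both injuries on the deposited scale, were called after neither. The share of higher calls among all called genes fell from 67.8% to 16.2% after HS and from 66.6% to 18.5% after FT, and 1 repair gene, *Xrcc5*, was then called lower after both. With median-of-ratios scaling instead, 14 repair genes were called higher after HS and 13 after FT, and none lower. Their median then stood above that of all genes by 0.88 after HS and 0.68 after FT.

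RAD51AP1 and the RAD54 proteins help the broken strand to pair with the intact copy, and RAD52 is a mediator of strand annealing. Of these 4 genes, 3 rose at 72 h after both injuries. *Rad51ap1* was at 3.28, 2.45 and 3.26 CPM in the NI samples, at 42.6, 25.6 and 25.4 CPM 72 h after HS and at 26.7, 19.6 and 19.6 CPM 72 h after FT. *Rad51ap1* (chromosome 6, 126923050 to 126939587 of GRCm38) had the highest level per length of the 12 genes at 72 h, 6.49 CPM per kb of exon after HS and 4.56 after FT. Its log2 fold change was 3.15 (standard error 0.24, adjusted p = 5.69e-09) after HS and 2.68 (standard error 0.24, adjusted p = 6.83e-08) after FT, by limma with Benjamini-Hochberg adjustment, and the groups did not overlap. At 1 week *Rad51ap1* was at 3.00 and 2.65 CPM after HS and 2.74, 3.64 and 2.92 CPM after FT, and at 2 weeks at 4.21, 5.56 and 5.56 and 4.49, 3.40 and 2.75 CPM. All 3 samples at 2 weeks after HS lay above all NI samples, at a log2 fold change of 0.68 that did not pass (adjusted p = 0.131, limma).

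*Rad54l* was at 3.04, 3.35 and 3.17 CPM in the NI samples, at 31.9, 18.4 and 18.9 CPM 72 h after HS and at 22.7, 17.5 and 20.9 CPM 72 h after FT. The translocase gene *Rad54l* (chromosome 4, 116094264 to 116123690) rose by 2.63 (standard error 0.27, adjusted p = 3.20e-07) on the log2 scale after HS and by 2.50 (standard error 0.27, adjusted p = 6.76e-07) after FT in limma, with no overlap with NI. At 1 week *Rad54l* was at 3.95 and 3.01 CPM after HS and 3.34, 2.48 and 3.78 CPM after FT, and at 2 weeks at 5.93, 4.06 and 7.13 and 3.65, 2.53 and 5.04 CPM. As with *Rad51ap1*, the samples at 2 weeks after HS lay above all NI samples without a call.

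*Rad54b* was at 1.31, 1.54 and 1.34 CPM in the NI samples, at 8.32, 6.502 and 3.48 CPM 72 h after HS and at 5.49, 2.63 and 5.08 CPM 72 h after FT. *Rad54b* (chromosome 4, 11558922 to 11615805), a paralog of *Rad54l*, rose by 1.72 (standard error 0.44, adjusted p = 0.00553) after HS and 1.31 (standard error 0.44, adjusted p = 0.0328) after FT, the widest errors among the 12 genes. At 1 week *Rad54b* was at 0.408 and 2.89 CPM after HS and 1.48, 1.16 and 0.631 CPM after FT, and at 2 weeks at 2.34, 2.14 and 0.966 and 0.562, 2.00 and 1.604 CPM. The call after FT was lost with 0.1 CPM added in place of 0.5 and with columns of 1 total. It was lost in 5 of the fits that left out 1 sample of NI or of FT 72 h, which held 3 samples each. Of its exon bases, 35.8% also belong to *Fsbp*, so reads of the 2 genes may not be told apart.

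*Rad52* was at 14.7, 18.5 and 14.4 CPM in the NI samples, at 12.8, 19.3 and 17.2 CPM 72 h after HS and at 14.4, 14.9 and 17.0 CPM 72 h after FT. *Rad52* was not called, at a log2 fold change of 0.04 (95% interval -0.46 to 0.54) after HS and -0.04 (95% interval -0.54 to 0.46) after FT. At 1 week *Rad52* was at 13.2 and 12.8 CPM after HS and 10.1, 20.1 and 20.9 CPM after FT, and at 2 weeks at 14.3, 18.8 and 17.0 and 18.8, 13.1 and 15.4 CPM. All groups overlapped with NI apart from HS 1 week, whose samples lay below it, and FT 1 week replicate 1 held the lowest value.

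**Figure D2:**
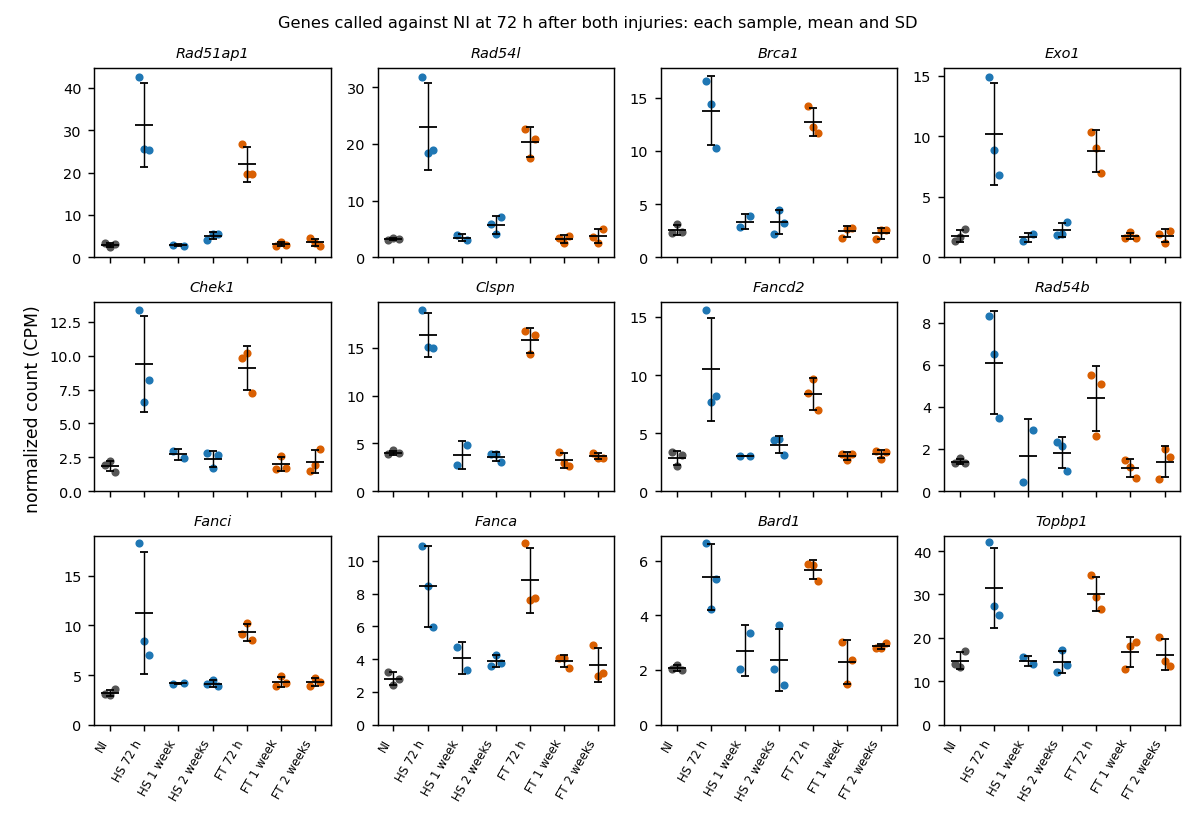
Normalized counts (CPM, linear axes from 0) of the 12 genes called at 72 h after both injuries, in each of the 20 samples (points, NI grey, HS blue, FT orange) with the group mean and SD (black, n = 3, or 2 for HS 1 week). In each panel all 6 samples at 72 h lie above the 3 NI samples, and the samples at 1 week and 2 weeks return toward NI, as *Rad51ap1* does from 19.6 to 42.6 CPM at 72 h to 2.65 to 5.56 CPM later.

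BRCA1 forms a ubiquitin ligase with BARD1 that acts at breaks, BRIP1 is a helicase bound to BRCA1, and PALB2 joins BRCA1 to BRCA2. *Brca1* and *Bard1* rose at 72 h after both injuries, and the other 3 genes were not called. *Brca1* was at 2.26, 3.09 and 2.40 CPM in the NI samples, at 16.6, 14.4 and 10.2 CPM 72 h after HS and at 14.2, 12.3 and 11.7 CPM 72 h after FT. Its mean was 2.58 ± 0.442 CPM (SD, n = 3) in NI. It had reached 13.8 ± 3.23 CPM (SD, n = 3) in the HS group and 12.7 ± 1.34 CPM (SD, n = 3) in the FT group. The log2 fold change of *Brca1* (chromosome 11, 101488764 to 101551955) was 2.19 (standard error 0.26, adjusted p = 2.99e-06) after HS and 2.10 (standard error 0.26, adjusted p = 5.49e-06) after FT in limma, without overlap. At 1 week *Brca1* was at 2.86 and 3.85 CPM after HS and 1.85, 2.71 and 2.76 CPM after FT, and at 2 weeks at 2.18, 4.49 and 3.26 and 1.68, 2.53 and 2.60 CPM. At those times the injured samples overlapped with NI in all 4 groups.

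*Bard1* was at 2.03, 2.19 and 2.01 CPM in the NI samples, at 6.64, 4.24 and 5.33 CPM 72 h after HS and at 5.87, 5.84 and 5.25 CPM 72 h after FT. *Bard1* (chromosome 1, 71027498 to 71103146) rose by 1.18 (standard error 0.28, adjusted p = 0.00379) after HS and by 1.26 (standard error 0.28, adjusted p = 0.00256) after FT in limma, less than *Brca1* on the same log2 scale. At 1 week *Bard1* was at 2.04 and 3.37 CPM after HS and 3.04, 1.47 and 2.37 CPM after FT, and at 2 weeks at 2.03, 3.63 and 1.45 and 2.81, 2.79 and 2.98 CPM. The samples at 2 weeks after FT all lay above NI, at a log2 fold change of 0.38 that did not pass.

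*Brip1* was at 10.1, 7.98 and 10.8 CPM in the NI samples, at 20.6, 14.4 and 19.3 CPM 72 h after HS and at 17.97, 18.7 and 14.4 CPM 72 h after FT. *Brip1* lay above NI in all 6 samples at 72 h, at a log2 fold change of 0.87 (95% interval 0.30 to 1.43) after HS and 0.79 (95% interval 0.22 to 1.36) after FT. Its adjusted p of 0.0220 and 0.0385 in limma passed, and its size did not reach 2-fold. At 1 week *Brip1* was at 11.03 and 9.26 CPM after HS and 10.8, 7.35 and 5.68 CPM after FT, and at 2 weeks at 9.98, 7.91 and 6.52 and 10.5, 4.61 and 8.40 CPM. *Palb2* was similar, at 0.72 and 0.58 with no overlap. *Brca2* was at 6.38, 7.72 and 8.25 CPM in NI, 9.68, 8.10 and 7.59 CPM 72 h after HS and 7.11, 8.76 and 6.41 CPM 72 h after FT. Its groups overlapped, and its log2 fold change was 0.17 (95% interval -0.33 to 0.68) after HS and -0.01 (95% interval -0.51 to 0.50) after FT, intervals that leave no room for a 2-fold rise.

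At a break, the MRE11-RAD50-NBN complex binds the ends, CtIP (*Rbbp8*) starts their trimming, and EXO1 and the BLM helicase carry resection on. Of these 6 genes *Exo1* rose after both injuries and *Rbbp8* after FT. *Exo1* was at 1.37, 1.67 and 2.302 CPM in the NI samples, at 14.9, 8.86 and 6.77 CPM 72 h after HS and at 10.4, 9.05 and 6.95 CPM 72 h after FT. *Exo1* (chromosome 1, 175880581 to 175913489) rose by 2.17 (standard error 0.29, adjusted p = 1.07e-05) after HS and 2.03 (standard error 0.29, adjusted p = 2.80e-05) after FT in limma. HS 72 h replicate 1, the deepest library, held the highest value of *Exo1*, and replicates 2 and 3 also lay above every NI sample. Within HS 72 h that library held the highest value of each of the 12 genes called after both injuries. The part of depth in this was not tested. At 1 week *Exo1* was at 1.36 and 1.92 CPM after HS and 1.63, 2.09 and 1.58 CPM after FT, and at 2 weeks at 1.87, 1.92 and 2.90 and 1.97, 1.22 and 2.21 CPM. None of the later groups stood clear of NI.

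*Rbbp8* was at 7.39, 10.2 and 9.02 CPM in NI, 19.2, 13.9 and 14.6 CPM 72 h after HS and 26.8, 17.5 and 15.8 CPM 72 h after FT. It rose by 1.11 (standard error 0.23, adjusted p = 0.00105) after FT in limma and stood at 0.80 after HS, above NI in all samples of both groups. The difference between the 2 injuries was 0.30 (95% interval -0.17 to 0.77), so the 2 calls do not show that they differ. *Blm* was higher than NI in all 6 samples without reaching 2-fold, at 0.91 (standard error 0.26, adjusted p = 0.0142) and 0.93 (standard error 0.26, adjusted p = 0.0132).

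The genes of the end-binding complex were not called. *Rad50* was at 35.2, 36.9 and 35.6 CPM in the NI samples, at 39.5, 43.5 and 48.0 CPM 72 h after HS and at 47.9, 45.6 and 48.9 CPM 72 h after FT. At 1 week *Rad50* was at 46.2 and 38.4 CPM after HS and 36.6, 45.0 and 49.99 CPM after FT, and at 2 weeks at 49.7, 50.5 and 41.2 and 46.4, 35.7 and 45.2 CPM. The differences of *Rad50* from NI at 72 h were 0.27 (95% interval -0.07 to 0.61) after HS and 0.40 (95% interval 0.06 to 0.74) after FT, well under 2-fold. *Mre11a* was at 0.63 and 0.61 with no overlap, and *Nbn* at -0.04 and 0.34 with overlap. At 1 week and 2 weeks after both injuries every *Mre11a* sample also lay above NI, without a call. Those samples held 7.93 to 12.5 CPM, beside 6.14 to 7.72 CPM in NI.

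In the Fanconi anemia pathway a nuclear core complex adds ubiquitin to FANCD2 and FANCI, which then bind the crosslink, while FANCM recognizes stalled forks. Both genes of the FANCI-FANCD2 pair rose at 72 h after both injuries, and of the 8 genes of the core complex with *Fancm* only *Fanca* did. That 1 of 8 is near the share of all genes called higher, 9.08% after HS and 8.14% after FT. *Fancd2* was at 3.34, 2.19 and 3.07 CPM in the NI samples, at 15.6, 7.63 and 8.20 CPM 72 h after HS and at 8.49, 9.64 and 6.95 CPM 72 h after FT. *Fancd2* (chromosome 6, 113531682 to 113597017) rose by 1.65 (standard error 0.26, adjusted p = 7.17e-05) after HS and 1.40 (standard error 0.26, adjusted p = 0.000434) after FT in limma. At 1 week *Fancd2* was at 3.00 and 3.01 CPM after HS and 3.19, 2.63 and 3.23 CPM after FT, and at 2 weeks at 4.37, 4.49 and 3.14 and 3.46, 2.79 and 3.36 CPM. The later samples of HS at 2 weeks ran highest, and they overlapped with NI.

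*Fanci* was at 3.04, 2.96 and 3.55 CPM in the NI samples, at 18.3, 8.39 and 6.97 CPM 72 h after HS and at 9.11, 10.2 and 8.55 CPM 72 h after FT. *Fanci* (chromosome 7, 79391929 to 79450264) rose by 1.55 (standard error 0.26, adjusted p = 0.000154) after HS and 1.41 (standard error 0.26, adjusted p = 0.000443) after FT in limma. Of its exon bases, 16.0% are shared with *Polg*. At 1 week *Fanci* was at 4.08 and 4.21 CPM after HS and 3.93, 4.87 and 4.18 CPM after FT, and at 2 weeks at 4.05, 4.49 and 3.86 and 3.93, 4.70 and 4.28 CPM. In all 4 later groups the samples lay above the 3 NI samples, by a log2 fold change of 0.34 and 0.33 after HS and 0.39 and 0.38 after FT, none of them called.

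*Fanca* was at 3.22, 2.45 and 2.78 CPM in the NI samples, at 10.9, 8.48 and 5.95 CPM 72 h after HS and at 11.1, 7.59 and 7.75 CPM 72 h after FT. *Fanca* (chromosome 8, 123268300 to 123318576) rose by 1.40 (standard error 0.25, adjusted p = 0.000306) after HS and 1.48 (standard error 0.25, adjusted p = 0.000203) after FT in limma. At 1 week *Fanca* was at 4.77 and 3.37 CPM after HS and 4.08, 4.10 and 3.47 CPM after FT, and at 2 weeks at 3.59, 4.28 and 3.74 and 4.87, 2.96 and 3.13 CPM. The later HS samples and those of FT at 1 week lay above all NI samples without a call.

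The other 7 genes of that role were called in no comparison with NI. After HS they ran from -0.38 for *Fance* to 0.75 for *Fancg*, and after FT from -0.46 for *Fancc* to 0.64 for *Fancf*, with *Fancl* and *Fancb* between them. *Fancg* and *Fancl* lay above every NI sample at 72 h after both injuries, and *Fancf* did so after FT. *Fancm* was at 50.8, 61.1 and 56.2 CPM in the NI samples, at 31.5, 58.7 and 54.3 CPM 72 h after HS and at 34.2, 107 and 50.6 CPM 72 h after FT. At 1 week *Fancm* was at 58.7 and 56.3 CPM after HS and 75.9, 46.2 and 47.2 CPM after FT, and at 2 weeks at 45.5, 92.8 and 50.2 and 54.5, 38.7 and 45.7 CPM. *Fancm*, a DNA translocase gene, overlapped with NI at 72 h after both injuries. Its highest values, 107 CPM in FT 72 h replicate 2 and 92.8 CPM in HS 2 weeks replicate 2, stood in the 2 libraries of lowest depth (3.87 and 4.59 M reads). The part of depth in those values was not tested.

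A family of paralogs that help to build and keep the protein filament on the resected strand held 5 genes. *Rad51c* was at 1.37, 2.06 and 1.63 CPM in NI, 6.41, 5.18 and 4.30 CPM 72 h after HS and 3.12, 2.92 and 4.45 CPM 72 h after FT. It rose by 1.40 (standard error 0.31, adjusted p = 0.00202) after HS and stood at 0.86 (standard error 0.31, adjusted p = 0.0489) after FT in limma, under 2-fold. The difference of FT from HS was -0.54 (95% interval -1.19 to 0.11). *Xrcc2* and *Xrcc3* lay above NI in all 6 samples, at 0.89 and 0.86 after HS and 0.75 and 0.68 after FT, none called.

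*Rad51b* had another time course. It was at 3.93, 4.50 and 4.03 CPM in NI, 7.89, 8.48 and 6.97 CPM 72 h after HS and 5.49, 5.55 and 4.19 CPM 72 h after FT. At 1 week *Rad51b* was at 9.12 and 7.10 CPM after HS and 8.89, 7.12 and 11.04 CPM after FT, and at 2 weeks at 5.46, 4.06 and 7.005 and 7.02, 7.31 and 8.32 CPM. Its one call against NI was at 1 week after FT, 1.01 (standard error 0.23, adjusted p = 0.00665) in limma, beside 2.86% of all genes called higher there. The call was lost with 1 CPM added (0.94), with columns of 1 total (0.70) and without NI replicate 1 (0.98), NI replicate 3 (0.99) or FT 1 week replicate 3 (0.86), and the value was 1.01 without FT 1 week replicate 1. At 1 week after HS *Rad51b* stood at 0.88 (95% interval 0.35 to 1.41), and FT differed from HS by 0.13 (95% interval -0.39 to 0.66).

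*Rad51d* was at 25.0, 30.5 and 32.5 CPM in the NI samples, at 25.7, 27.8 and 26.0 CPM 72 h after HS and at 23.3, 23.7 and 28.6 CPM 72 h after FT. At 1 week *Rad51d* was at 22.1 and 28.9 CPM after HS and 21.8, 29.3 and 25.4 CPM after FT, and at 2 weeks at 27.0, 34.4 and 26.7 and 28.2, 20.55 and 27.9 CPM. *Rad51d* had the highest level per length of the 42 genes in NI, 7.90 CPM per kb, and its groups overlapped at 72 h and later.

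Among the checkpoint genes, the kinases ATM and ATR respond to breaks and to stalled forks, TOPBP1 activates ATR, claspin hands its signal to CHK1, and ATM signals through CHK2. *Chek1*, *Clspn* and *Topbp1* rose at 72 h after both injuries, *Chek2* after HS, and *Atm* and *Atr* were not called. *Chek1* was at 1.91, 2.19 and 1.44 CPM in the NI samples, at 13.4, 6.60 and 8.20 CPM 72 h after HS and at 9.86, 10.2 and 7.21 CPM 72 h after FT. *Chek1* (chromosome 9, 36708482 to 36727065) rose by 2.03 (standard error 0.29, adjusted p = 2.51e-05) after HS and 2.03 (standard error 0.29, adjusted p = 2.86e-05) after FT in limma. At 1 week *Chek1* was at 3.00 and 2.41 CPM after HS and 1.63, 2.55 and 1.73 CPM after FT, and at 2 weeks at 2.81, 1.71 and 2.66 and 1.498, 1.92 and 3.13 CPM. Both samples at 1 week after HS lay above NI without a call, and the other later groups overlapped with NI.

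*Clspn* was at 3.87, 4.25 and 3.93 CPM in the NI samples, at 19.0, 15.1 and 14.96 CPM 72 h after HS and at 16.7, 14.3 and 16.4 CPM 72 h after FT. *Clspn* (chromosome 4, 126556935 to 126593903) rose by 1.89 (standard error 0.23, adjusted p = 2.78e-06) after HS and 1.85 (standard error 0.23, adjusted p = 4.02e-06) after FT in limma, with little spread at 72 h. At 1 week *Clspn* was at 2.72 and 4.81 CPM after HS and 4.08, 2.94 and 2.60 CPM after FT, and at 2 weeks at 3.90, 3.85 and 3.02 and 4.02, 3.48 and 3.44 CPM. At these times its group means were all under the NI mean of 4.02 ± 0.201 CPM (SD, n = 3), with overlap and no call.

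*Topbp1* was at 14, 13.3 and 17.1 CPM in the NI samples, at 42.0, 27.3 and 25.2 CPM 72 h after HS and at 34.4, 29.5 and 26.7 CPM 72 h after FT. The log2 fold changes of *Topbp1* (chromosome 9, 103305215 to 103350428), 1.04 (standard error 0.22, adjusted p = 0.00148) and 1.01 (standard error 0.22, adjusted p = 0.00217) in limma, were the smallest among the 12 genes, and they fell under 2-fold in part of the alternatives (0.82 after HS without HS 72 h replicate 1). At 1 week *Topbp1* was at 15.5 and 14 CPM after HS and 12.8, 18.1 and 19.2 CPM after FT, and at 2 weeks at 12.2, 17.1 and 13.8 and 20.2, 14.6 and 13.5 CPM. The later samples of *Topbp1* overlapped with NI in all 4 groups.

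*Chek2* was at 16.6, 17.1 and 12.4 CPM in NI, 39.6, 35.9 and 38.5 CPM 72 h after HS and 29.95, 30.1 and 27.2 CPM 72 h after FT. It rose by 1.29 (standard error 0.25, adjusted p = 0.000608) after HS and stood at 0.91 (standard error 0.25, adjusted p = 0.0112) after FT. Every HS sample of *Chek2* at 72 h lay above every FT sample, at a difference of -0.38 (95% interval -0.91 to 0.14) for FT minus HS that did not pass.

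*Atm* was at 27.9, 30.8 and 33.5 CPM in the NI samples, at 21.4, 22.5 and 28.9 CPM 72 h after HS and at 25.0, 26.0 and 29.3 CPM 72 h after FT. At 1 week *Atm* was at 29.5 and 30.3 CPM after HS and 26.6, 29.6 and 25.3 CPM after FT, and at 2 weeks at 31.0, 25.0 and 27.2 and 34.2, 20.46 and 28.3 CPM. *Atm* overlapped with NI at 72 h after both injuries, at -0.34 (95% interval -0.73 to 0.04) and -0.20 (95% interval -0.58 to 0.19). *Atr* stood at -0.33 (95% interval -0.69 to 0.02) after HS, with all 3 samples below NI, and at -0.31 (95% interval -0.67 to 0.04) after FT with overlap. On the deposited scale the intervals of both kinase genes leave no room for a 2-fold change in either direction. Their intervals with columns of 1 total, a scale that moved the median of all genes down, are not given here.

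The genes of end joining and of single-strand break repair were set apart from the recombination genes by role. XRCC5 and XRCC6, together the Ku heterodimer, hold broken ends for direct joining, XRCC4 serves the ligase of that route, and XRCC1 is a scaffold for single-strand breaks. *Xrcc5* was at 14.5, 14.7 and 13.6 CPM in the NI samples, at 9.84, 10.1 and 3.90 CPM 72 h after HS and at 9.61, 7.01 and 6.14 CPM 72 h after FT. At 1 week *Xrcc5* was at 10.3 and 6.496 CPM after HS and 3.63, 7.97 and 5.76 CPM after FT, and at 2 weeks at 9.82, 9.41 and 10.99 and 9.08, 7.84 and 9.24 CPM. All 17 injured samples of *Xrcc5* (chromosome 1, 72307421 to 72394952) lay below all 3 NI samples. Its call was at 1 week after FT, -1.29 (standard error 0.30, adjusted p = 0.00959) in limma, where 1.2% of all genes were called lower. Without FT 1 week replicate 1, the library that stood apart and had the lowest value, it was -1.02 and still called, and the share of all genes called lower was then 2.68%. At 72 h *Xrcc5* stood at -0.91 (standard error 0.30, adjusted p = 0.0296) after HS and -0.89 (standard error 0.30, adjusted p = 0.0364) after FT, below the 2-fold limit, and with columns of 1 total it was called lower in both (-1.40 and -1.34).

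*Xrcc6* was at 23.4, 19.3 and 19.8 CPM in the NI samples, at 44.3, 36.6 and 29.9 CPM 72 h after HS and at 34.4, 27.2 and 31.3 CPM 72 h after FT. At 1 week *Xrcc6* was at 24.8 and 17.9 CPM after HS and 11.8, 28.4 and 24.6 CPM after FT, and at 2 weeks at 24.8, 20.9 and 29.3 and 26.3, 25.3 and 20.8 CPM. *Xrcc6*, the partner of *Xrcc5*, thus lay above NI in all 6 samples at 72 h, at 0.80 (standard error 0.25, adjusted p = 0.0223) after HS and 0.56 (standard error 0.25, adjusted p = 0.110) after FT, with no call. *Xrcc4* was at 0.31 and 0.28 and *Xrcc1* at 0.08 and 0.27, with overlap. Of the pair matched by spelling alone, *Rad51ap2* lay between 0 and 0.815 CPM over all samples. *Rad54l2* was at 11.98, 12.2 and 14.7 CPM in the NI samples, at 8.62, 6.69 and 17.6 CPM 72 h after HS and at 11.4, 6.72 and 12.7 CPM 72 h after FT. At 1 week *Rad54l2* was at 10.5 and 10.6 CPM after HS and 11.6, 10.7 and 8.12 CPM after FT, and at 2 weeks at 10.1, 8.12 and 10.4 and 10.6, 7.05 and 9.47 CPM. *Rad54l2* overlapped with NI at 72 h and was not called.

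**Figure D3:**
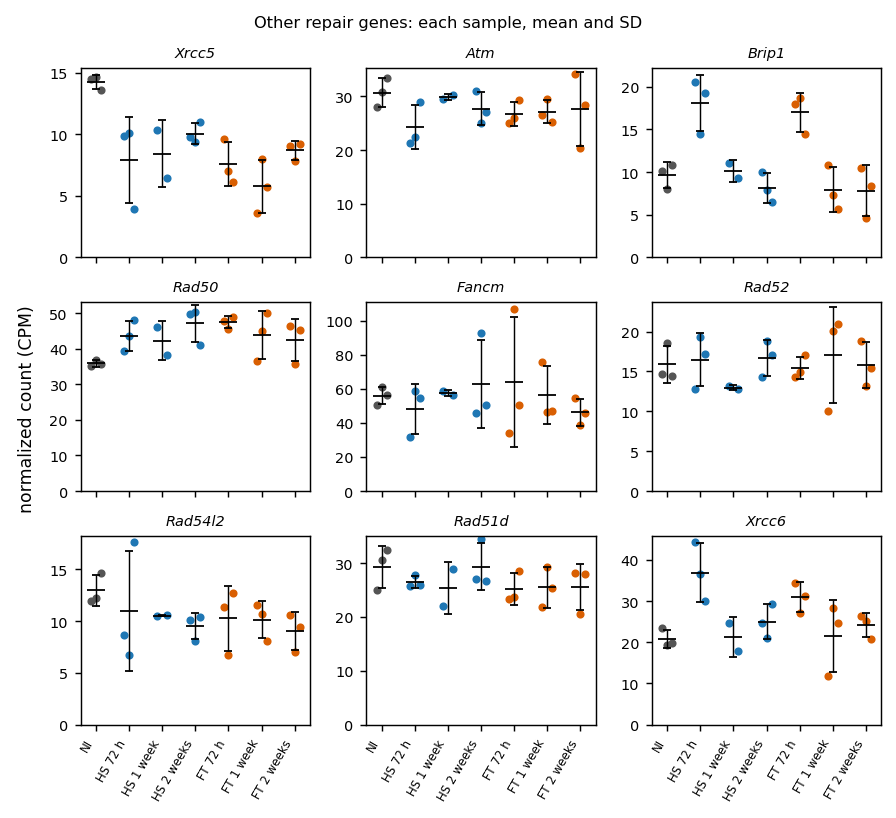
Normalized counts (CPM, linear axes from 0) of *Xrcc5* and of 8 genes that are the most abundant of their role and were called in no comparison with NI, in each of the 20 samples (points, NI grey, HS blue, FT orange) with the group mean and SD (black, n = 3, or 2 for HS 1 week). *Xrcc5* lies at 13.6 to 14.7 CPM in NI and at 3.63 to 10.99 CPM in injured samples, and *Fancm* shows single samples of 107 and 92.8 CPM.

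Per length, the 12 genes that rose after both injuries were low in NI, with a median of 0.382 CPM per kb of exon (0.212 to 1.32), beside a median of 1.53 for the other 30 genes (0.132 to 7.90). The 12 genes were picked by their rise over these same NI samples, so this difference is not independent of the pick. At 72 h after HS the medians were 1.78 and 2.39 CPM per kb, and after FT 1.55 and 2.41. *Exo1* was the lowest of the 12 genes per length in NI, and it rested on 23, 13 and 24 reads in the NI samples. Of the 12 genes, 5 share exon bases with another protein-coding gene (*Fanca* with *Zfp276*, *Fancd2* with *Fancd2os*, *Fanci* with *Polg*, *Rad54b* with *Fsbp* and *Rad54l* with *Lrrc41*), and whether the libraries kept strand is not stated.

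Promoter windows of RefSeq on GRCm38.p6, 250 bases before to 50 after a start, were given for 33 of the 42 genes, among them 9 of the 12 that rose after both injuries. They were searched on both strands for 4 words of the E2F family, factors that switch on S phase genes (TTTCCCGC, TTTCGCGC, TTTGCCGC and TTTGGCGC), for the cell cycle word TTTGAA and for CCAAT, none of which contains another. An E2F word stood in 2.26% of all 32851 windows, or in 704 of 27025 genes. It stood in 3 of the 9 risen genes (*Bard1*, *Clspn* and *Topbp1*) and in 5 of the other 24 genes (*Brca2*, *Chek2*, *Fancg*, *Rad51c* and *Xrcc6*). Of these 5, *Chek2* and *Rad51c* were called higher at 72 h after HS. *Fancg* and *Xrcc6* lay above every NI sample at 72 h after both injuries without a call, and *Brca2* overlapped with NI. TTTGAA stood in 1 of 9 and 1 of 24 (17.9% of all windows, 5466 of 27025 genes). CCAAT stood in 5 of 9 and 16 of 24 (37.4% of all windows, 11096 of 27025 genes). The windows of the 3 risen genes with an E2F word, and that of *Brca2*, which holds one and did not rise, are shown with the word in capitals (in the reverse direction where it lies on the other strand). They lie at chr1:71102923-71103222 on the minus strand (*Bard1*), chr4:126556730-126557029 on the plus strand (*Clspn*), chr9:103305077-103305376 on the plus strand (*Topbp1*) and chr5:150522371-150522670 on the plus strand (*Brca2*).
Bard1: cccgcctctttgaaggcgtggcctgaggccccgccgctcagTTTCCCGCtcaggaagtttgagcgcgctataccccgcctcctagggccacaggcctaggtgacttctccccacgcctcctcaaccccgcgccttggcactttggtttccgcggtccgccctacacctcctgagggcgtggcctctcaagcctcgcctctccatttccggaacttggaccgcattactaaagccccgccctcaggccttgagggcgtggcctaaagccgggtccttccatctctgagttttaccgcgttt
Clspn: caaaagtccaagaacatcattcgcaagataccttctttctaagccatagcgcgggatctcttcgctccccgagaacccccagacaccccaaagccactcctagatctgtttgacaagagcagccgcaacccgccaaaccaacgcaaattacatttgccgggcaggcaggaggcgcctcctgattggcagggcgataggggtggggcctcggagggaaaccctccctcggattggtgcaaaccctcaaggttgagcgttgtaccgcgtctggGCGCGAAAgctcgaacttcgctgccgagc
Topbp1: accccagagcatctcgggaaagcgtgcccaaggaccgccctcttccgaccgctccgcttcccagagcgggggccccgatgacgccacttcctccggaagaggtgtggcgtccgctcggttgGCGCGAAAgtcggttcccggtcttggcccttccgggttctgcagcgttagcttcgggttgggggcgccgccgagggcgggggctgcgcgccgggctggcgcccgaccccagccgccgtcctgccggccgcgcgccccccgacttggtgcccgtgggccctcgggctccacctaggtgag
Brca2: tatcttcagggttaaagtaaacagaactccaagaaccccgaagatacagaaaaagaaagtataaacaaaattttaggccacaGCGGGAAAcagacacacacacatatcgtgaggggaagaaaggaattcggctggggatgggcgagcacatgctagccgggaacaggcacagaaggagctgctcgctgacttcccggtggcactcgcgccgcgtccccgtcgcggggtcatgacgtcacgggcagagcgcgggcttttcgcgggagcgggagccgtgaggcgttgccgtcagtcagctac
A matched word is a description of these letters and was not tested as a binding site. Other spellings of an E2F site were not searched.

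The direct comparison of the lesions asked whether severity changed these genes. No gene was called between FT and HS at any time, among the 42 or in the table (0% called each time, limma), and an unadjusted p below 0.05 was reached by 1 of the 42 genes at 72 h and by 1 at 2 weeks, against 0 at 1 week, beside 3.0%, 2.61% and 4.31% of all genes. edgeR's quasi-likelihood test and DESeq2 also called 0 of the 42. In the table, edgeR called 0 genes each time, and DESeq2 called 0 at 72 h, 5 higher and 2 lower at 1 week and 1 higher at 2 weeks. limma called 1 gene of the table, none of the 42, at 72 h without HS 72 h replicate 2 and 1 at 1 week without FT 1 week replicate 1. At 72 h the differences ran from -0.58 (*Rad51b*) to 0.40 (*Fancf*), and for 36 of the 42 genes the 95% interval lay within 2-fold. At 1 week it did so for 33 genes and at 2 weeks for 39. *Rad51b* at 72 h was lower after FT than after HS in every sample, by -0.58 (95% interval -1.05 to -0.10), with an adjusted p of 1.00 in limma. The gene at 2 weeks was *Rad54l*, at -0.56 (95% interval -1.12 to -0.00), where the samples overlapped. For *Rad51ap1*, *Brca1* and *Chek1* the differences at 72 h were -0.47 (95% interval -0.98 to 0.04), -0.09 (95% interval -0.64 to 0.46) and 0.00 (95% interval -0.61 to 0.61).

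**Figure D4:**
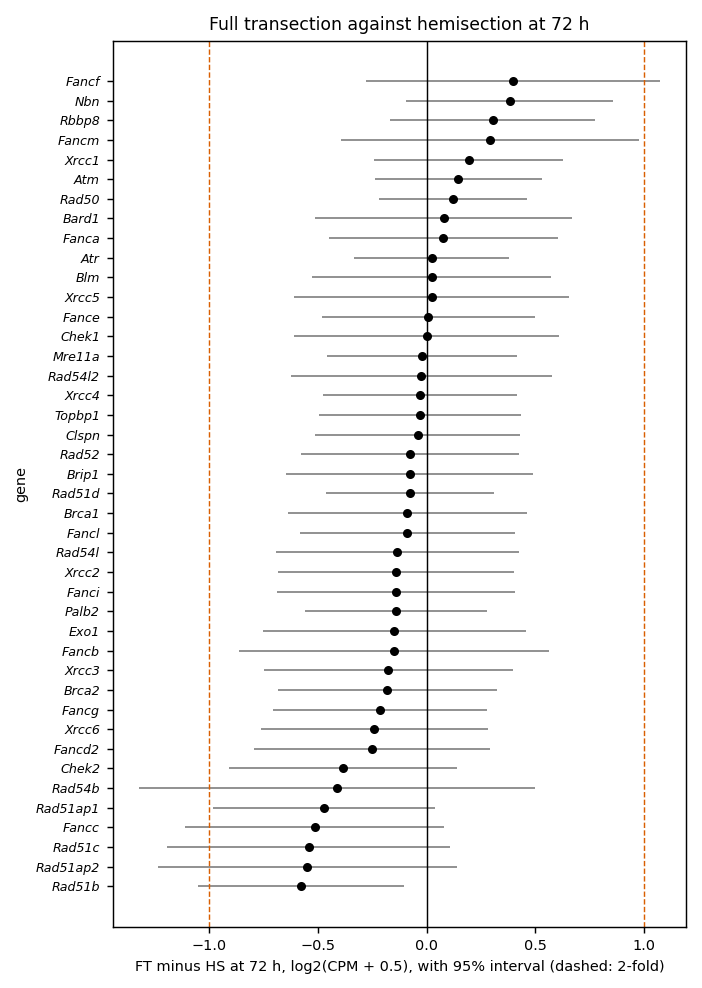
Difference between FT and HS at 72 h on the log2(CPM + 0.5) scale (horizontal axis, points, with 95% intervals from limma as grey lines) for the 42 repair genes (vertical axis), with dashed lines at 2-fold. The points run from -0.58 for *Rad51b* to 0.40 for *Fancf*, and 36 of the 42 intervals lie within the dashed lines.

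The fall after 72 h was tested within each injury. Against 72 h, 12 of the 42 genes were lower at 1 week and 14 at 2 weeks after HS, where 4.07% and 3.37% of all genes were called lower. None was called higher, beside 1.95% and 1.37% of all genes. After FT, 13 genes were lower at 1 week and 11 at 2 weeks, beside 2.62% and 2.68% of all genes, and none higher, beside 0.827% and 1.13%. These comparisons use the same 72 h samples as those with NI. *Rad51ap1* fell by 3.21 on the log2 scale from 72 h to 1 week after HS and by 2.63 after FT. *Brca1* fell by 1.87 and 2.18, and *Chek1* by 1.58 and 1.96. *Brip1*, not called against NI, was called lower than at 72 h at 2 weeks after HS (-1.11) and at both times after FT (-1.09 and -1.13). *Xrcc3* was called lower at 1 week after HS alone (-1.18). The counts fell to 7 at 1 week after HS without HS 1 week replicate 2, to 7 at 2 weeks after HS without HS 72 h replicate 1, and to 8 at both later times after FT without FT 72 h replicate 1.

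Against NI, the later groups gave 0 called genes of 42 at 1 week and 2 weeks after HS (2.18% and 3.23% of all genes called) and at 2 weeks after FT (4.88%), and 2 at 1 week after FT (4.05%). At an unadjusted p below 0.05 in limma there were 3, 3, 2 and 2 of the 42 genes in this order, beside 12.8%, 16.1%, 19.1% and 18.2% of all genes. The medians of the 42 genes were 0.08, 0.18, 0.09 and 0.07 on the deposited scale and turned to -0.11, -0.14, -0.28 and -0.21 with columns of 1 total, where the medians of all genes were -0.17, -0.29, -0.36 and -0.32.

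Other genes of the same repair routes were read from a list. Of 51 listed recombination and crosslink repair genes outside the rule, 49 were in the table, and at 72 h 11 were called higher and 1 lower after HS and 9 higher and 1 lower after FT. Among all genes, 9.08% were called higher and 4.31% lower after HS, and 8.14% higher and 4.09% lower after FT. *Eme1*, which pairs with MUS81 to cut joined molecules, changed by 2.66 after HS and 2.39 after FT. *Ube2t*, the ubiquitin-conjugating enzyme of the Fanconi pathway, changed by 2.45 and 1.93, and *Rad18*, a ubiquitin ligase of replication repair, by 2.03 and 1.98. *Rmi2*, a partner of BLM, was the gene called lower, at -1.10 and -1.26. The median of the 49 genes was 0.37 and 0.19. Of 7 listed end joining genes 6 were in the table, and none was called at any time (medians -0.27 and -0.17 at 72 h).

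Cell cycle genes rose beside the repair genes. Of 20 listed S phase genes, 20 were called higher at 72 h after HS and 19 after FT (medians 2.20 and 2.09), led by *Rrm2* (5.29 and 4.79), *Mcm5* (3.43 and 3.16) and *Gins2* (3.22 and 2.70). Of 20 listed G2 and mitosis genes, 19 were called higher after each injury (medians 3.78 and 3.59), led by *Ccnb1* (4.95 and 4.75), *Ccnb2* (4.89 and 4.72) and *Top2a* (4.66 and 4.59). Their summed level was 80.1 to 80.8 CPM in NI, 1062 to 1724 CPM 72 h after HS and 1060 to 1270 CPM 72 h after FT, and 121 to 145 CPM at 2 weeks after HS. The part of the cell cycle in the rise of the repair genes was not tested. Of 15 listed p53 targets, which damage signals through ATM and CHK2 can switch on, 14 were in the table. *Ccng1* (1.18 and 1.17) was called after both injuries and *Bax* (1.10) after HS, and *Cdkn1a* was at 1.18 and 1.06 without a call. The other listed p53 targets were not called, and the 14 ran from -1.36 to 1.18 after HS (median -0.05) and from -0.99 to 1.17 after FT (median -0.20). The 2 and 1 called stand beside 9.08% and 8.14% of all genes called higher.

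**Figure D5:**
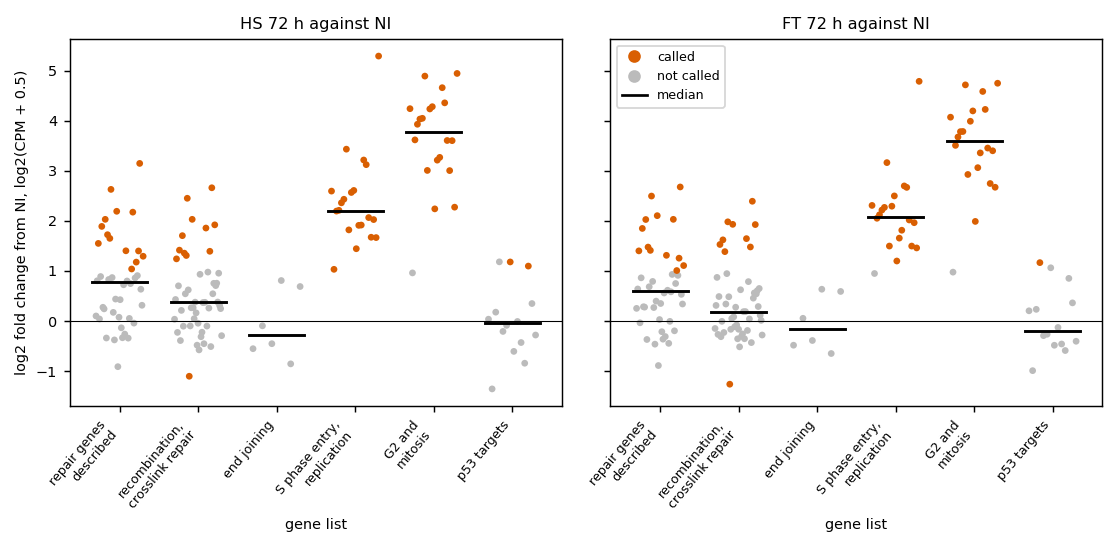
Log2 fold change from NI at 72 h (vertical axis, log2(CPM + 0.5) scale) of each gene (points, orange where called, grey where not) in the 42 repair genes and in 5 other gene lists (horizontal axis), with black lines at the medians, after HS (left) and FT (right). The medians after HS are 0.77 for the repair genes, 0.37 for the other recombination and crosslink genes, 2.20 for S phase genes and 3.78 for G2 and mitosis genes.

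Markers of other cells also moved at 72 h. Of 6 listed monocyte or macrophage markers, 2 were called higher after HS (*Ccr2* and *Chi3l3*) and 4 after FT, beside 9.08% and 8.14% of all genes. The 6 markers summed to 71.7 to 73.9 CPM in NI, 121 to 190 CPM after HS and 134 to 425 CPM after FT. Of the 4 astrocyte markers, *Gfap* was called higher and *Slc1a2* lower after both, and *Aldh1l1* higher after FT, with a sum of 138 to 246, 170 to 395 and 321 to 477 CPM. Neutrophil markers summed to 23.2 to 84.3 CPM in NI, 6.56 to 15.2 after HS and 12.9 to 44.2 after FT, and lymphocyte markers to 34.9 to 41.5, 49.8 to 58.0 and 45.9 to 54.0. Endothelial, oligodendrocyte and neuron sums were no higher at 72 h than the highest NI sample, and the 1 erythroid and 4 oligodendrocyte precursor markers were at most 27.2 CPM in sum. Among these low sums, the precursor marker *Cspg4* was called higher after both (1.56 and 2.22), *Olig1* lower after both (-1.66 and -1.56) and *Olig2* lower after HS (-1.08). The neuron marker *Snap25* was called lower after both (-2.11 and -3.13), the lymphocyte marker *Nkg7* higher after FT (1.57) and the neutrophil marker *Camp* lower after HS (-2.07). The part of these cells in the repair genes was not tested.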

How the data were processed

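Polyadenylated RNA of sorted microglia was sequenced in 20 samples of 7 groups. Per the labels and the study's methods, the authors removed adapter reads with FASTX-Toolkit, mapped with TopHat 2.0.9 to mm10, counted reads per gene with HTSeq 0.5.4p3, kept genes with at least 10 counts in at least 2 replicates and normalized with edgeR 3.3.6. The signal values that the authors deposited are these normalized counts in CPM for 16810 genes. Divided by the value of 1 read, all 336200 values (100%) came out whole within 0.001 of a read, so reads and depth (3.87 to 34.1 mega-reads per sample) were recovered, and 1 read was worth 0.0330 to 0.292 CPM. This precision covers counting error only.

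Values were analysed as log2(CPM + 0.5) with limma 3.58.1 (R 4.3.3), with an intensity trend, 1 mean per group, all 20 samples and Benjamini-Hochberg adjustment over 16810 genes. Genes with an adjusted p below 0.05 and a change of at least 2-fold were called, in 13 comparisons. The unit was not stated and was read from the values. As alternatives, 0.1 or 1 CPM was added, genes that reached 1 CPM in fewer than 2 samples were dropped, or the fit used the 2 groups alone, median-of-ratios scaling, columns of 1 total, no fold limit, a replicate block, the recovered reads in edgeR 4.0.16 (quasi-likelihood) and DESeq2 1.42.0, or all samples but 1.

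The genes and lists were chosen with earlier results of these data known. Of the 43 genes of the rule, 1 is not reported here, and the other 42 are all named. Values in each sample are given for the 12 genes with the largest mean rise among those called at 72 h after both injuries, for genes called lower than NI, and for the most abundant gene of a role where it was never called against NI. Other genes with values in each sample (*Brca2*, *Chek2*, *Rad51b*, *Rad51c* and *Rbbp8*) were chosen after their values were seen. Gene positions and exon lengths are from GENCODE on GRCm38, and CPM per kb divides by the length of all exons of a gene.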

Additional observations from a re-analysis of the deposited data

How the results depend on the processing

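The counts of called repair genes moved by more than 1.5 times under 3 alternatives and in 6 of the counts with 1 sample left out. Brought to 1 total, the columns gave 8 in place of 13 genes for FT at 72 h against NI, 1 in place of 2 for FT at 1 week, 1 in place of 0 for FT at 2 weeks, 8 in place of 14 for HS at 2 weeks against 72 h and 8 in place of 13 for FT at 1 week against 72 h. Without a fold limit there were 25 in place of 14 genes for HS at 72 h, 21 in place of 13 for FT at 72 h and 1 in place of 0 for FT at 2 weeks against NI. With 1 CPM added, 1 in place of 2 was called for FT at 1 week. Leaving out 1 sample gave 14 to 16 genes for HS and 10 to 13 for FT at 72 h against NI, 1 to 2 for FT at 1 week, 7 to 13 and 7 to 16 for HS at 1 week and 2 weeks against 72 h, 8 to 12 and 8 to 11 for FT, and 0 in the other comparisons. The 6 were the counts without HS 1 week replicate 2 (7 in place of 12, HS at 1 week against 72 h), HS 72 h replicate 1 (7 in place of 14, HS at 2 weeks against 72 h), FT 72 h replicate 1 (8 in place of 13, FT at 1 week against 72 h) and NI replicate 1, NI replicate 3 or FT 1 week replicate 3 (1 in place of 2, FT at 1 week against NI). edgeR and DESeq2 on recovered reads gave 16 genes each for HS at 72 h and 15 each for FT. The cause of these moves was not tested. No gene called against NI changed sign in any alternative. The medians of the 42 genes at 1 week and 2 weeks against NI turned from above to below 0 with columns of 1 total (-0.11 and -0.14 after HS, -0.21 and -0.28 after FT). Deviations from the group mean had a correlation of -0.39 to 0.38 over 57 pairs of samples with the same replicate number (median -0.0017). Over 114 pairs with different numbers it was -0.40 to 0.39 (median -0.0066). The numbers thus showed no strong shared deviation, and whether samples of a number were processed together cannot be read from this. With a replicate block the counts were 14 for HS at 72 h, 13 for FT at 72 h, 2 for FT at 1 week, 0 in the other comparisons with NI and between FT and HS, and 13, 14, 13 and 11 against 72 h. Genes near 2 CPM rest on few reads in NI, and HS 1 week holds 2 samples.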
